A study of Mus musculus with 6 samples.

Results

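The chemoattractant receptors Fpr1, Fpr2, C5ar1, C3ar1, Ptafr, Ccr1, Ccr2, Ccr4 and Cx3cr1 were examined in RAW 264.7 cells, a mouse macrophage-like line, with or without 15-HETE. The 9 genes were chosen by function but also from earlier results of the same comparison, in which Fpr2, C5ar1 and Ccr4 had already been seen to differ. Their differences between the groups are therefore given as a description. The calls of the array-wide fit are counted for them beside those of all probes, and support nothing. Of the 9 genes 6 had a probe whose only gene symbol was theirs, out of 13840 genes with such a probe on the array. Each of these 6 had 1 probe. Fpr1, Ptafr and Cx3cr1 were without an annotated probe and were not analysed here.

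Total RNA was measured 24 h after stimulation in 3 samples that received LPS, the bacterial endotoxin that activates macrophages, at 1 μg/mL, and in 3 that received 40 μM 15(S)-HETE, a hydroxylated arachidonic acid, and immediately thereafter the same LPS. Every cell had thus been given LPS, and unstimulated cells were not analysed here. Each biological replicate pooled 6 wells of 1 cell line, so p-values measure the spread between cultures of that line. The sources name no vehicle for the wells without 15-HETE. Values are chemiluminescent intensities of 33012 probes in arbitrary units, quantile normalized by the authors, with a median of 837 in the array as a whole. Log2 differences are 15-HETE + LPS minus LPS. Which arrays were hybridized together is not stated, so that effects of hybridization and of 15-HETE cannot be told apart. Precision is limited by the number of arrays.

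Chemoattractant receptors are seven-helix membrane proteins that couple mainly to inhibitory G proteins and steer leukocytes up gradients of their ligands. Formyl peptide receptors sense bacterial and mitochondrial peptides, and Fpr2 also binds lipid and protein mediators of the resolution of inflammation. C5ar1 and C3ar1 sense the complement fragments C5a and C3a, Ptafr senses the lipid platelet-activating factor, and the Ccr receptors and Cx3cr1 sense chemokines. Macrophages use these receptors to reach inflamed tissue, and the complement and formyl peptide receptors also trigger degranulation and the oxidative burst.

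Of the macrophage markers set for a check of the cells, 13 of 16 had a probe and all 13 had a mean log2 intensity above that of the array median. Limma called 0 of these 13. An unadjusted p under 0.05 was found at 19.6% of all probes. Among the 13 it was found at 1 higher, the Fc receptor Fcgr1 (log2 difference 0.51), and 1 lower, the lysosomal protein Laptm5 (-0.90). With a prior variance that follows intensity (the intensity trend) limma called Laptm5 alone (adjusted p = 0.00595), beside 8.84% of all probes. Of 23 markers of neutrophils, lymphocytes, dendritic cells and fibroblasts 19 had a probe, and 11 of these also had a mean above that median. Limma called 0 of the 19, with 3 at an unadjusted p under 0.05, beside 19.6% of all probes. These 3 were Dcn, a fibroblast proteoglycan (log2 difference -1.30, adjusted p = 0.0587), and Mpo (-1.38, adjusted p = 0.0704) and Elane (-1.08, adjusted p = 0.148), enzymes of neutrophil granules. With the intensity trend limma called Dcn (adjusted p = 0.00298) and Mpo (adjusted p = 0.0290), both lower. The summed intensity of the 5 fibroblast markers was 21563 to 26992 in LPS samples and 12861 to 15207 in 15-HETE + LPS samples, and that of the 6 neutrophil markers was 62146 to 186477 and 143508 to 219716. Most of the fibroblast sum in LPS samples was Dcn, with means of 14584 and 5822, and the groups overlapped for the other 4 fibroblast markers. Nearly all of the neutrophil sum was S100a8, with means of 134884 and 169556, whose groups overlapped. Mpo (2137 and 848) and Elane (1461 and 680) did not overlap and were lower, beside 16.3% of all probes. S100a9, Ltf and Ngp had groups that overlapped, with log2 differences of 0.49, 0.10 and -0.67. Of the 6 neutrophil markers 3 thus lay above 0 and 3 below. The part of these markers in the values of the receptors was not tested.

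Among the receptors for peptides and complement fragments, Fpr2 was lower and C5ar1 was higher in every sample with 15-HETE. The formyl peptide receptor Fpr2 had intensities of 4477, 7030.0 and 7491 in LPS replicates 1 to 3, and of 1456, 1452 and 1324 in the 15-HETE + LPS replicates. All treated samples lay far below the lowest LPS sample and close to each other. The means were 6333 ± 1623 (SD, n = 3) and 1411 ± 75.1 (SD, n = 3), and the log2 difference was -2.13 (standard error 0.25, 95% interval -2.73 to -1.53), which is 4.38-fold lower. A difference as low or lower was found at 0.151% of all probes of the array.

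C5ar1, the receptor that draws phagocytes to sites of complement activation, had intensities of 8485, 5676 and 6725 in LPS samples and of 15671, 15075 and 14387 after 15-HETE. The groups were well apart, and again the treated samples lay closer together than the LPS samples. The means were 6962 ± 1419.6 (SD, n = 3) and 15044 ± 643 (SD, n = 3), a log2 difference of 1.13 (standard error 0.21, 95% interval 0.62 to 1.64) or 2.19-fold, and 3.67% of all probes had a difference as high or higher.

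C3ar1, which responds to the C3a anaphylatoxin, had intensities of 32164, 45825 and 47653 in LPS samples and of 59834, 51096 and 59158 after 15-HETE. The groups did not overlap, but the gap between the highest LPS sample and the lowest treated sample was small. The log2 difference was 0.45 (standard error 0.22, 95% interval -0.09 to 1.00), from means of 41880.5 ± 8465 (SD, n = 3) and 56696 ± 4862 (SD, n = 3). The interval included 0, so the size of the difference is within what the spread of the samples allows.

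**Figure D1:**
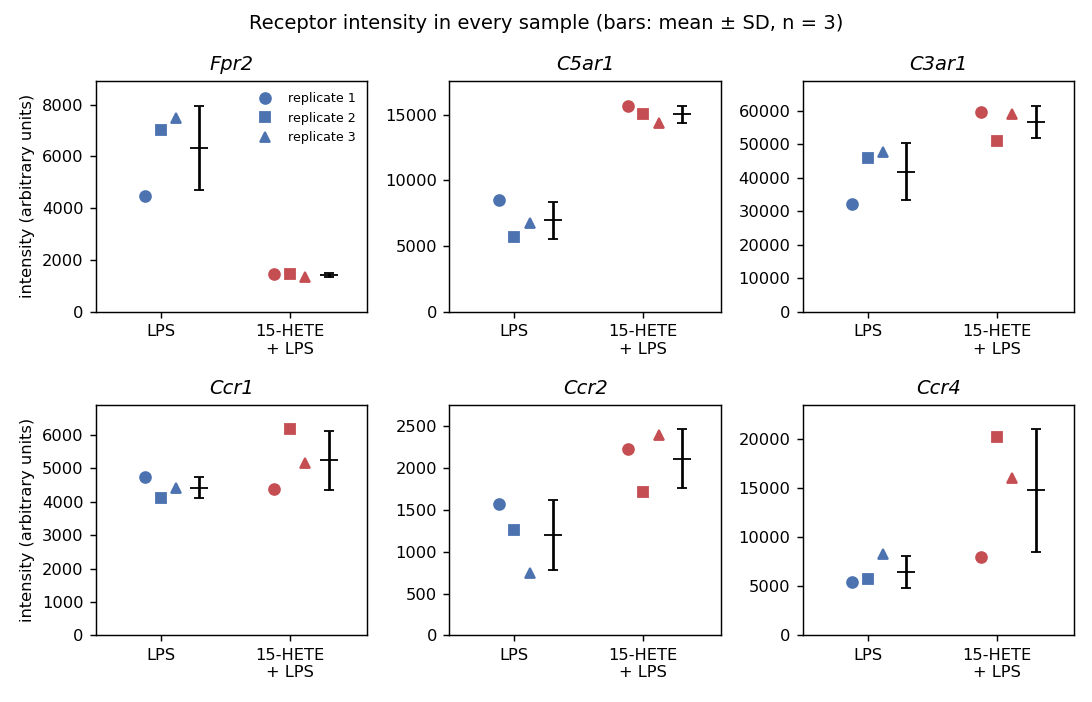
Intensity of the 6 measured receptors in every sample (y axis, arbitrary units, from 0), with LPS samples in blue and 15-HETE + LPS samples in red, replicate numbers as symbols, and the mean ± SD of 3 samples in black. The treated samples of Fpr2 sit between 1324 and 1456, below every LPS sample, while those of C5ar1 sit between 14387 and 15671, above every LPS sample.

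The 3 chemokine receptors had log2 differences above 0, with the widest errors of the 6 receptors at Ccr2 and Ccr4 and the smallest at Ccr1. Ccr2, the receptor of the monocyte chemoattractants Ccl2 and Ccl7, had intensities of 1573, 1264 and 751 in LPS samples and of 2221, 1713 and 2389.7 after 15-HETE. The groups did not overlap, although LPS replicate 1 came close to the lowest treated sample and LPS replicate 3 lay below the array median. The means were 1196 ± 415 (SD, n = 3) and 2108 ± 352 (SD, n = 3), and the log2 difference was 0.87 (standard error 0.32, 95% interval 0.09 to 1.65).

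Ccr4, the receptor of Ccl17 and Ccl22 that is best known from T cells, had intensities of 5404, 5708 and 8342 in LPS samples and of 8014, 20267 and 16048 after 15-HETE. Treated replicate 1 lay among the LPS samples and the other two lay well above them. The log2 difference of 1.11 (standard error 0.39, 95% interval 0.16 to 2.07) was close to that of C5ar1 in size, with the largest standard error among the 6 genes. Without treated replicate 1 it was 1.50, and without treated replicate 2 it was 0.83.

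Ccr1, which binds Ccl5, Ccl6 and Ccl9, had intensities of 4725, 4106 and 4421 in LPS samples and of 4382, 6159 and 5168 after 15-HETE. The groups overlapped. The log2 difference was 0.23 (standard error 0.20), and its 95% interval, from -0.25 to 0.72, included 0. Without treated replicate 2 it was 0.11, and without treated replicate 1 it was 0.36.

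Counted together, 5 of the 6 receptors had a log2 difference above 0 and 1 had a difference below 0, with a median of 0.66 against 0.01 over all probes. The groups did not overlap for 3 receptors that were higher and 1 that was lower, beside 13.7% of all probes that did not overlap and were higher and 16.3% that were lower. A difference of 2-fold or more was seen at 3 receptors, namely Fpr2, C5ar1 and Ccr4, beside 11.0% of all probes. At an adjusted p under 0.05 limma called 1 of the 6, Fpr2, lower and 0 higher, beside 0.442% of probes called lower, 0.509% called higher and 0.951% in either direction. With the intensity trend it called Fpr2 and C5ar1, beside 8.84% of all probes. The call at Fpr2 was lost without any 1 of the 6 samples in the fit with no trend, where 0 probes of the array were called, and with the trend Fpr2 and C5ar1 were called in all 6 such fits. Nothing is read from these counts, as the genes were selected on the same comparison.

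**Figure D2:**
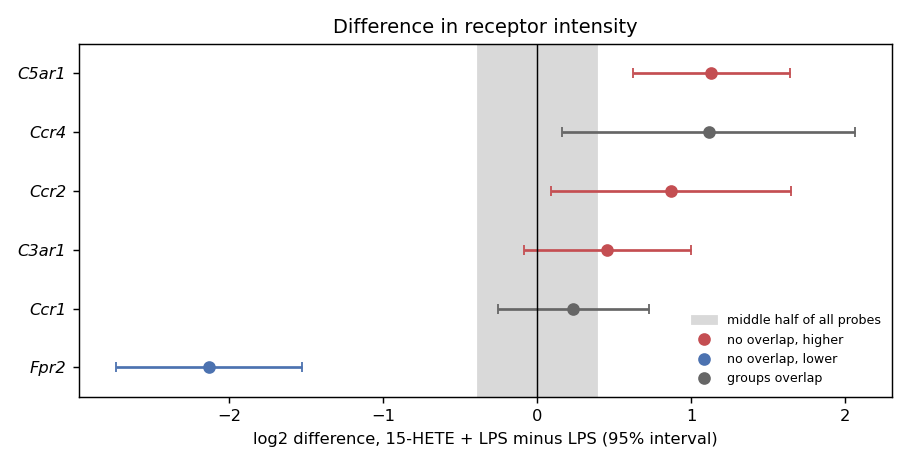
Log2 difference of each measured receptor (x axis, 15-HETE + LPS minus LPS) with its 95% interval from limma, coloured by whether the samples of the 2 groups overlap, over a grey band from the lower to the upper quartile of all probes (-0.39 to 0.38). Fpr2 at -2.13 is the only receptor below 0, and the intervals of C3ar1 and Ccr1 include 0.

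The treated samples were the less spread for 4 of the 6 genes. The coefficient of variation was 25.6% in LPS samples and 5.32% in treated samples for Fpr2, and 20.4% and 4.27% for C5ar1. It went the other way for Ccr4 (24.9% and 42.1%) and for Ccr1 (7.00% and 17.0%). Over all probes the treated samples were the less alike. Log2 intensities correlated at 0.955 to 0.962 between treated samples and at 0.972 to 0.979 between LPS samples. LPS replicate 1 was the lowest LPS sample for Fpr2, C3ar1 and Ccr4 and the highest for C5ar1, Ccr1 and Ccr2. Leaving it out moved the log2 difference of C3ar1 from 0.45 to 0.28, and leaving out LPS replicate 3 moved that of Ccr2 from 0.87 to 0.57. Without any 1 of the 6 samples, Fpr2 ran from -2.36 to -1.99 and C5ar1 from 0.99 to 1.28. Receptors whose groups did not overlap could not change sign when 1 sample was left out. Ccr1 and Ccr4, whose groups overlapped, stayed above 0 whichever sample was left out.

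**Figure D3:**
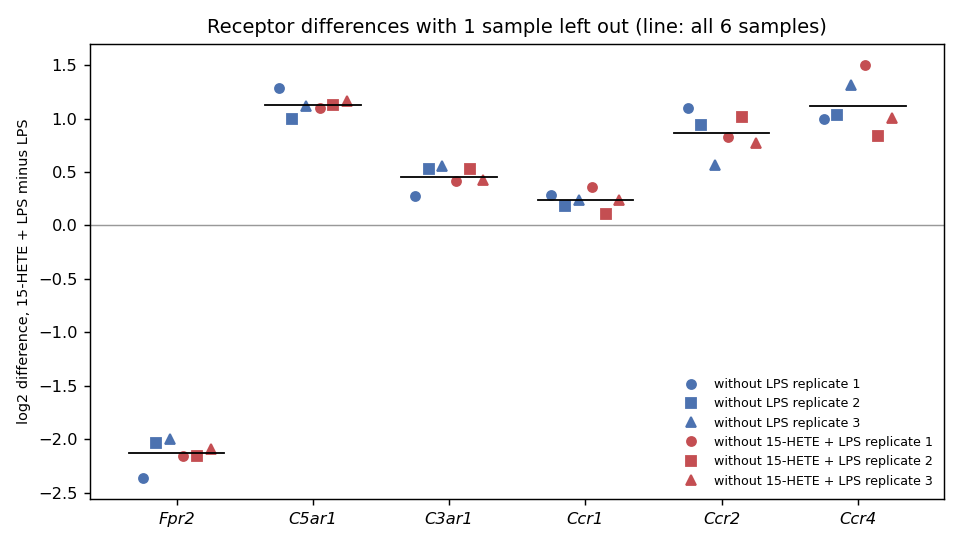
Log2 difference of each measured receptor (y axis, 15-HETE + LPS minus LPS) when 1 of the 6 samples was left out, with blue symbols for LPS samples left out, red for 15-HETE + LPS samples and a black line for all 6 samples. Fpr2 stays between -2.36 and -1.99 and C5ar1 between 0.99 and 1.28, while Ccr4 spreads from 0.83 to 1.50.

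The promoters of Fpr2 and C5ar1, the receptors with the lowest and the highest log2 difference, and of C3ar1 and Ccr4 are shown with the motifs found in them. Each window runs from 250 bases before to 50 bases after the RefSeq start of the gene in the GRCm38.p6 assembly of the mouse genome, and is written 5′ to 3′ on the strand of the gene. The array files name no genome build. Fpr2 is at chr17:17887574-17887873 on the plus strand, C5ar1 at chr7:16259289-16259588 on the minus strand, C3ar1 at chr6:122856108-122856407 on the minus strand and Ccr4 at chr9:114496495-114496794 on the minus strand. Capitals mark matches, on either strand, to AGGTCA (a site of nuclear receptors), TGACTCA (AP-1), GAGGAA (the core bound by PU.1) or TTCNNNGAA (STAT proteins).
Fpr2: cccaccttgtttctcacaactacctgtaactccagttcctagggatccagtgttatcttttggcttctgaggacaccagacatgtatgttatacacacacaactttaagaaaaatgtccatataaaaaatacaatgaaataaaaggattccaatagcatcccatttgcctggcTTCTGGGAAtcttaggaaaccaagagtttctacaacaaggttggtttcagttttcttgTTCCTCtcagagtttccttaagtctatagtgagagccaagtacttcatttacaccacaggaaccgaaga
C5ar1: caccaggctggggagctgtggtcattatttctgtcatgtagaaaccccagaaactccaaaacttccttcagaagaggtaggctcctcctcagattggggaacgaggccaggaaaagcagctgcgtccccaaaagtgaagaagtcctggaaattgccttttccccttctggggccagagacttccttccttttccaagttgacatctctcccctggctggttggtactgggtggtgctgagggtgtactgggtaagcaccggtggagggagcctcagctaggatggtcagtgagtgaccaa
C3ar1: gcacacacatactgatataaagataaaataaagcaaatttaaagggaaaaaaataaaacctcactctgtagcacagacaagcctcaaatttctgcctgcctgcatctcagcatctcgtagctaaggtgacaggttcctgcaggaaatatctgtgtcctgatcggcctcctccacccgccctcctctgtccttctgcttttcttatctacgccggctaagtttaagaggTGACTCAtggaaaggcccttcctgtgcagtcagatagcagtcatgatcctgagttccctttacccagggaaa
Ccr4: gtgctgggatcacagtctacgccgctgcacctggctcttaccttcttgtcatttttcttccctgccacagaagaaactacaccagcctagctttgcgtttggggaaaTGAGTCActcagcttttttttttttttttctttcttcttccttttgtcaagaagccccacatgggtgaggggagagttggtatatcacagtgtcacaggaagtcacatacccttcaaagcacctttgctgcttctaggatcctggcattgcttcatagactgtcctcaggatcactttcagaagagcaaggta

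The AP-1 letters were found in the windows of C3ar1, 22 bases before the start, and of Ccr4, and in 5.20% of the 32817 promoter windows searched. The window of Fpr2 held 1 STAT match and 1 match of the PU.1 core, which are present in 8.29% and 28.3% of windows. That core was also found in the windows of Ptafr and Ccr1. The nuclear receptor site was in the window of 0 of the 9 receptors and in 16.3% of all windows. No motif was matched in the windows of C5ar1, Fpr1, Ccr2 or Cx3cr1. None of the motifs overlapped another in the printed windows. A match describes the letters only.

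Several of these receptor genes lie side by side. Fpr1 and Fpr2 are neighbours on chromosome 17 in RefSeq order, with Spaca6, Has1, Fpr3 and Fpr-rs4 close by. Fpr-rs4, a formyl peptide receptor relative expressed in the vomeronasal organ, had mean intensities of 158 in LPS samples and 231 after 15-HETE, far under the array median, and Has1, a hyaluronan synthase, had 439 and 440 (log2 difference 0.03). Ccr1, Ccr1l1, Ccr3 and Ccr2 follow each other on chromosome 9. Ccr1l1, a close relative of Ccr1, had means of 591 and 281, and Ccr3, the eotaxin receptor of eosinophils, had 693 and 642, with overlap of the groups for Ccr3. C5ar2, the second C5a receptor and the neighbour of C5ar1 on chromosome 7, had means of 976 ± 11.8 (SD, n = 3) and 1135 ± 586 (SD, n = 3) with a log2 difference of 0.05 (adjusted p = 0.965 from limma). The difference at C5ar1 was thus not seen at the probe of its neighbour and relative, but the 95% interval there, from -1.06 to 1.15, is wide and reaches the value of C5ar1. Ccdc9, another gene next to or near C5ar1, had a log2 difference of -0.95 (adjusted p = 0.0675), with groups that did not overlap. Clec4a1, a C-type lectin gene near C3ar1, fell by 1.39 on the log2 scale (adjusted p = 0.0480 from limma), beside 0.442% of all probes called lower. Near C3ar1, Foxj2 (-0.61) and Necap1 (0.55) also had groups that did not overlap, while those of Slc2a3 (0.14) overlapped. Over all probes 13.7% did not overlap and were higher, and 16.3% were lower. Whether the probes of related genes share signal was not tested.

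The rest of the pathway was followed in 5 lists of other receptors, ligands, enzymes of platelet-activating factor, G proteins with their effectors, and desensitisation. Of their 101 genes 82 had a probe. The groups did not overlap for 14 that were higher and 12 that were lower, beside 13.7% and 16.3% of all probes. Limma called 0 of the 82 at an adjusted p under 0.05, and 10 had an unadjusted p under 0.05, beside 19.6% of all probes. With the intensity trend 3 were called, namely Ccl7, Ccl2 and Dock2, all lower, beside 8.84% of all probes.

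Of 33 other chemoattractant receptors 28 were measured, with 15 differences above 0, 13 below and a median of 0.09, and 0 were called. There were 2 higher and 1 lower at an unadjusted p under 0.05, beside 19.6% of all probes in either direction. When the trend was used there were 0 calls, beside 8.84% of all probes. Of the 28, 9 had a mean log2 intensity above the array median, among them Cxcr4, Ltb4r1 and Ccrl2. Cxcr4, the receptor of Cxcl12, had 7657 ± 763 (SD, n = 3) in LPS samples and 10741 ± 106 (SD, n = 3) after 15-HETE (log2 difference 0.49, adjusted p = 0.197 from limma). Ltb4r1, the receptor of leukotriene B4, had a log2 difference of 0.49 (adjusted p = 0.220). Ackr2, a decoy receptor that removes chemokines, lay at -1.28 with a standard error of 0.37 (adjusted p = 0.139), and Ccr1l1 at -1.04 with a standard error of 0.43 (adjusted p = 0.255). Both were dim, with every treated sample below the array median and means of 1093 and 475 for Ackr2. Cxcr4, Ltb4r1, Ackr2 and Ccr1l1 had the lowest p of the list. Among the 28, the groups did not overlap for these 4 alone, 2 higher and 2 lower. Over all probes 13.7% did not overlap and were higher, and 16.3% were lower.

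Of 19 ligands 15 were measured, with 6 differences above 0, 9 below and a median of -0.33, and limma called 0. The unadjusted p was under 0.05 for 4 of them, 2 in each direction, beside 19.6% of all probes in either direction. The groups did not overlap for 4 ligands that were higher and 3 that were lower, beside 13.7% and 16.3% of all probes. For Ccr2, the ligands Ccl7 and Ccl2 were lower in every treated sample. Ccl7 had 718743 ± 64285 (SD, n = 3) in LPS samples and 387529 ± 8164 (SD, n = 3) after 15-HETE, a log2 difference of -0.89 (standard error 0.17, adjusted p = 0.0716), or 0.00646 with the intensity trend. Ccl2 had a log2 difference of -0.69 (standard error 0.21, adjusted p = 0.152), or 0.0388 with the intensity trend. Ccl12, a further ligand of Ccr2, had 1.52 (standard error 0.60, adjusted p = 0.235 from limma), the highest difference of the 15. Every treated sample of Ccl12 lay above every LPS sample. Its means were only 864 in LPS samples and 2284 after 15-HETE, with 319 in LPS replicate 1, below the array median. Ccl8, a related chemokine, had -0.57 (standard error 0.67). The Ccr2 ligands thus did not all lie on the same side of 0. Ccl12 alone lay above 0, and its probe was far dimmer than those of Ccl7 and Ccl2.

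For Fpr2, the ligand Anxa1, a glucocorticoid-induced protein that restrains neutrophil entry, had 204543 ± 10684 (SD, n = 3) and 163247 ± 11677 (SD, n = 3), a log2 difference of -0.33 (adjusted p = 0.349 from limma). The serum amyloid A proteins Saa2 and Saa3, acute phase ligands of Fpr2, had 0.68 (adjusted p = 0.161) and 0.79 (adjusted p = 0.334). The groups did not overlap for Anxa1, Saa2 or Saa3, while for Camp, the precursor of the peptide CRAMP, they overlapped (-0.51). For Ccr1, the ligands Ccl5 (0.24), Ccl9 (0.07) and Ccl6 (-0.45) had adjusted p-values of 0.585, 0.864 and 0.373 from limma. The groups did not overlap for Ccl5 and overlapped for Ccl9 and Ccl6. For Ccr4, the ligands Ccl17 (-0.11) and Ccl22 (0.02) had groups that overlapped. Hc, the gene of complement C5, had a log2 difference of -0.49 with a standard error of 0.85, and Cx3cl1, the ligand of Cx3cr1, had -0.42 with a standard error of 0.32. C3, Saa1, Hebp1 and Ccl3 were without an annotated probe.

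**Figure D4:**
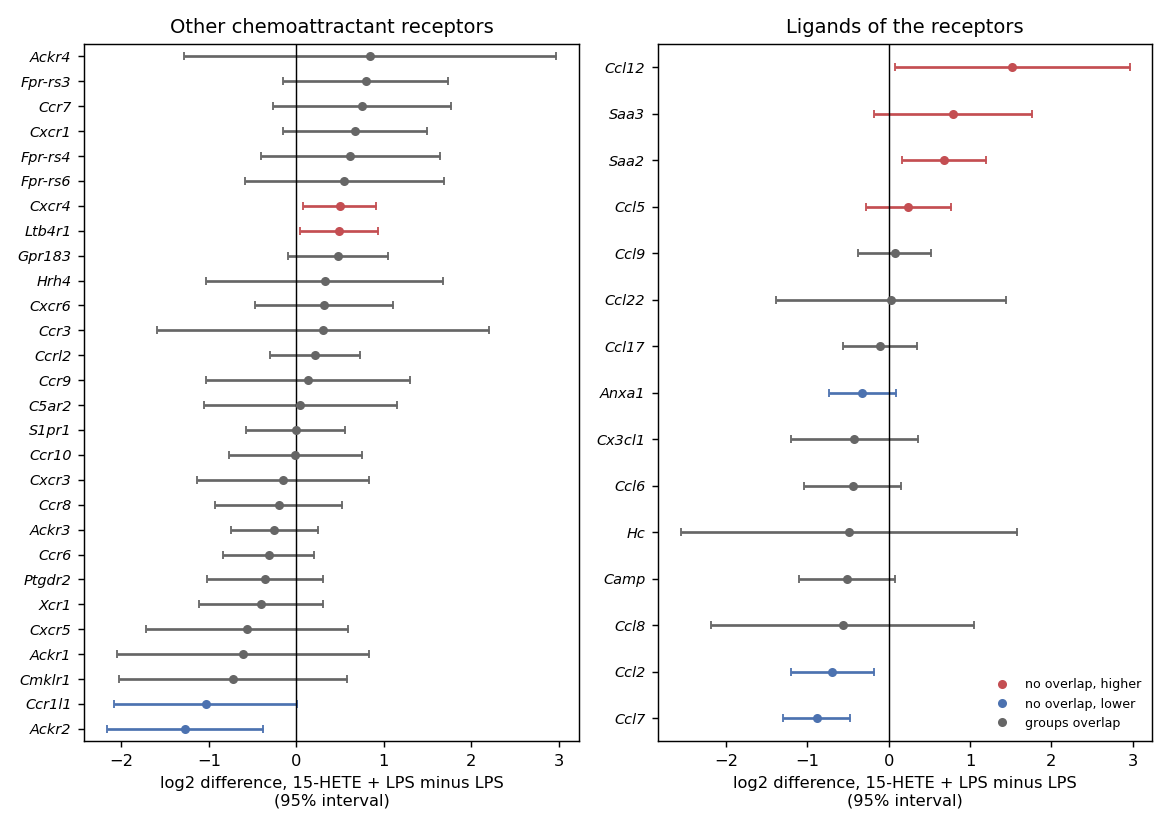
Log2 difference (x axis, 15-HETE + LPS minus LPS) with its 95% interval from limma for 28 other chemoattractant receptors (left) and 15 ligands of the studied receptors (right), coloured by whether the samples of the 2 groups overlap. Ackr2 at -1.28 lies lowest among the receptors, and Ccl7 at -0.89 and Ccl2 at -0.69 lie lowest among the ligands. Ccl12 at 1.52 lies highest among the ligands.

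Of 8 genes that make or break down platelet-activating factor, the ligand of Ptafr, 7 were measured and 0 were called by limma. There were 0 at an unadjusted p under 0.05, beside 19.6% of all probes, and 0 with the intensity trend. The lowest p were those of the acyltransferase Lpcat1 (log2 difference -0.46, adjusted p = 0.275), the acetylhydrolase subunits Pafah1b3 (0.53, adjusted p = 0.340) and Pafah1b1 (-0.33, adjusted p = 0.360), and Lpcat2, which makes platelet-activating factor in activated macrophages (0.30, adjusted p = 0.416).

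Of 25 G proteins and effectors 19 were measured, and limma called 0. At an unadjusted p under 0.05 there were 1 higher and 2 lower, beside 19.6% of all probes in either direction. The inhibitory subunits Gnai2 (-0.21) and Gnai3 (-0.43), to which these receptors couple, had groups that overlapped. Gnb4, a β subunit, lay at -1.16 with a standard error of 0.34 (adjusted p = 0.140), and Dock2, which activates Rac for leukocyte movement, had -0.80 (standard error 0.25, adjusted p = 0.165, or 0.0373 with the intensity trend). Gnb4 was dim, with means of 1107 and 528 and every treated sample below the array median. Pik3r5, the regulatory subunit of the G-protein-activated PI3 kinase, had 0.81 (standard error 0.28, adjusted p = 0.193), and the GTPase Cdc42 had 0.57 (standard error 0.24, adjusted p = 0.255).

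Of 16 genes of receptor desensitisation 13 were measured, with a median of 0.07, and limma called 0. There were 0 at an unadjusted p under 0.05, beside 19.6% of all probes, and 0 with the intensity trend. The lowest p were those of Rgs18 (0.65, adjusted p = 0.290), the receptor kinase Grk5 (0.34, adjusted p = 0.365), Rgs10 (-0.34, adjusted p = 0.449) and Rgs19 (0.21, adjusted p = 0.529). Rgs18 was dim, with means of 241 and 382 and every sample below the array median. Rgs proteins speed the shutdown of G protein signals. The β-arrestin Arrb2, which takes active receptors off the surface, had -0.21, and its groups overlapped.

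The genes whose log2 intensity followed each receptor most closely over the 6 samples were also looked up, among 8605 probes with 1 symbol and a mean above the array median. Fpr2 was followed most closely by Ccl7, one of the ligands above (Pearson's r = 0.999) and by Commd8 (0.997), and 140 probes had an r above 0.95. C5ar1 was followed by Gzf1 and G6pd2 (both 0.999), with 489 probes above that r, and C3ar1 by C1qb, a chain of the complement component C1q (0.998), and by Eif2ak2, the interferon-induced kinase PKR (0.997), with 240. Ccr2 was followed by Abhd5 and Tgds (both 0.997), Ccr4 by Stard6 (0.994) and Mrps31 (0.992) and Ccr1 by Nacc2 (0.990) and Pknox1 (0.970). These are likenesses over 6 samples that share a treatment difference, picked as the highest of many.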

How the data were processed

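Total RNA of LPS-stimulated RAW 264.7 cells, 3 samples with and 3 without 15-HETE, was labelled with digoxigenin and hybridized to mouse genome survey arrays. The deposited values are linear intensities, which the authors read on a chemiluminescent analyzer and quantile normalized; when each array is sorted, its values depart from those of the others by no more than 0.224%. The authors' later filter on S/N and flags was not repeated, as the table holds all probes. Background correction is not given in the sources used here, and quantile normalization hides differences in total signal.

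Intensities were turned to log2 and all 33012 probes were fitted in R 4.3.3 using lmFit and eBayes of limma 3.58.1 (two-sided, Benjamini-Hochberg over all probes, calls at an adjusted p under 0.05). Robust fits used statmod 1.5.0. The platform annotation has 14411 probes under a single symbol, 247 under more than that and 18354 without any; 14402 were found in RefSeq by gene ID. A gene was read at its brightest probe of only that symbol. Probe sequences and coordinates were not used.

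The members and lists were chosen with earlier results of these data known. Named were all members, their ligands, the 4 genes of lowest p of each list and any called, and the 2 genes most like each member. Neighbouring genes, Gnai2, Gnai3, Arrb2, Ccrl2 and the markers were named after their values were seen. The alternatives changed the prior, the test, the normalization, the offset (100) or the dimmest probe allowed, blocked on replicate number, or dropped each sample in turn. The fits were tested on simulated data. Promoters came from RefSeq (GRCm38.p6), where all 9 members matched.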

Additional observations from a re-analysis of the deposited data

How the results depend on the processing

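The log2 difference of each of the 6 receptors kept its sign in every alternative run. Changing the prior or the test, blocking, or leaving out dim probes cannot move this difference. Scaling to the 75th percentile left it unchanged, so it moved only with cyclic loess, the offset or a dropped sample. With cyclic loess or the offset it moved by less than its residual SD over the 6 samples. Dropping 1 sample of a group of 3 cannot move it by as much as that SD, whatever the values. Dropping 1 sample could not change the sign where the groups did not overlap. Counts of calls moved more. Of 33012 probes limma called 314, against 2917 with the intensity trend, 703 with an offset of 100 and 162 with a robust prior. A filter to 15667 probes above the array median gave 2939 calls. The methods' t-test, run over all 33012 probes with Benjamini-Hochberg adjustment, called 0 at the methods' threshold of 0.025 or at 0.05, with 3168 probes at an unadjusted p of 0.025 or less. The methods ran it on fewer probes. In an alternative chosen after seeing the data, it was run over the 5550 probes that differed from the LPS mean by 1.8-fold or more, one way, in 2 or more treated samples, and called 90 at 0.025. Neither is the study's own procedure, whose filter on S/N and flags could not be repeated, and a selection by fold in the samples tested makes the adjusted p too small. Of the receptors 1 was called, against 2 (Fpr2 and C5ar1) with the intensity trend, with the offset and with the filter, and 0 by either run of the t-test, with 2 at an unadjusted p of 0.025 or less in each. Of the ligands 0 were called, against 2 with the trend and 3 with the filter. Of the G proteins and effectors 1 was called with the trend, and of the other receptors 1, Cxcr4, with the filter. Cyclic loess and scaling to the 75th percentile gave 316 and 314 probes and the same numbers for the receptors and lists.

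With the replicate number as a block, 0 probes and 0 receptors were called. The numbers pair no samples in the labels, and deviations of same-numbered samples correlated at -0.0240, 0.00350 and 0.0237. LPS replicate 1 correlated most with treated replicate 3 (0.0282).

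Dropping any 1 sample left 0 calls by limma on the array, among the receptors and in every list, Fpr2 included. Leaving out each sample was repeated with the intensity trend, a choice made after seeing the data. It called 1223, 1399, 1485, 1525, 1562 or, without LPS replicate 1, 5135 probes, 2 to 3 receptors, 1 to 5 ligands, 0 to 5 G proteins and effectors, 0 to 2 other receptors, 0 to 3 genes of platelet-activating factor and 0 to 2 of desensitisation. Fpr2 and C5ar1 were called in all 6 of these fits. Each highest count apart from that of the receptors came without LPS replicate 1 alone, where Anxa1, Saa3 and Ccl6 joined Ccl2 and Ccl7 among the ligands. Of the receptors C3ar1 was the third without LPS replicate 1, and Ccr4 without treated replicate 1.

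No receptor had more than 1 probe, so the mean over probes and other probes could not be used. With 3 samples a group no sample was examined as an outlier within its group. Leaving 2 samples in a group assumes that they vary like the others. Intensities carry no detection call, so whether dim probes such as that of Fpr-rs4 lie above background is unknown.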
